A study of Saccharomyces cerevisiae with 4 samples.

Results

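Translation factors and cytosolic aminoacyl-tRNA synthetases of Saccharomyces cerevisiae were followed through 60 min in lithium chloride. The 38 genes were taken by name: 8 of elongation, 12 of initiation and 18 synthetase genes, of 5923 genes named in the array's annotation. They lie on 37 of 9275 probe sets that are no controls, where a probe set is the group of oligonucleotides that reports 1 transcript. Of these genes 32 have a probe set to themselves, with 2 sets each for TEF4 and EFB1. The other 6 share 3 sets, TEF1 with TEF2, EFT1 with EFT2 and TIF1 with TIF2, and these near-identical copies cannot be told apart here.

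The study measured polyadenylated RNA on 4 Affymetrix YG-S98 arrays, 1 for each group. The groups were KIN28 overexpression 60 min after 200 mM LiCl was added, KIN28 overexpression at 0 min (before lithium), POG1 overexpression 60 min after 200 mM LiCl, and POG1 overexpression at 0 min. All cells grew exponentially in synthetic glucose drop-out medium before the salt. KIN28 encodes the kinase of the transcription factor TFIIH, and POG1 is a gene linked to transcription and to recovery from pheromone arrest. The series title names an rsp5 mutation, that is, of a ubiquitin ligase gene, but the labels give no RSP5 genotype, plasmid or empty-vector culture. Here "culture" means the arrays of 1 overexpressed gene, because the labels do not say whether its 0 and 60 min cells came from the same flask, and the drop-out medium may have differed between them. No culture without lithium was sampled at 60 min, so lithium and time in the flask cannot be told apart.

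Initiation factors bring the small ribosomal subunit, the methionyl initiator tRNA and the capped mRNA together. eIF2 carries the initiator tRNA, eIF3 holds the complex on the small subunit, and the eIF4 factors read the cap and unwind the leader. Elongation factors then deliver charged tRNAs (eEF1), move the ribosome along the mRNA (eEF2) and, in fungi, clear the exit site with the ATPase eEF3. The synthetases attach each amino acid to its tRNA, and in yeast the genes of this machinery are known to be transcribed strongly during fast growth.

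Signals are the deposited intensity divided by the median of its array, so a value of 10 means 10 times the middle probe set. A value says nothing of the level of 1 gene against another, because probe sets differ in brightness. KIN28 read 64.9 in KIN28 cells at 60 min and 71.9 at 0 min, against 0.873 in POG1 cells at 60 min and 1.16 at 0 min. POG1 read 75.1 in POG1 cells at 60 min and 58.2 at 0 min, and was near or under the floor of measurement in KIN28 cells, so both labels fit their arrays. Array medians lay between 41.8 and 60.6 intensity units. RNA quality was uneven: the 3' to 5' signal ratio of the SRB4 control sets was 7.50 on the KIN28 0 min array and 3.70 to 4.65 on the others. For SPT15 it was 2.34 to 3.83, and 2.79 on the KIN28 0 min array, and for ACT1 1.31 to 1.92, highest on that array. The part of RNA quality in the results was not tested.

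Most members were lower after 60 min in lithium, in both cultures. In KIN28 cells 35 of 37 sets were below their 0 min value, with a median log2 change of -0.76, or 1.7-fold lower. In POG1 cells 35 of 37 were below as well, with a median log2 change of -0.75, or 1.68-fold lower. Over all probe sets the medians were 0.05 and -0.01. That background is unlike the members. All 37 members were above the floor of measurement on all 4 arrays, whereas 1 array was enough for a set to be tested. The dimmest member read 0.951 times the array median at its lowest, and the next 1.74. Of the 9275 sets that are no controls, 2443 match no gene, so shares of all sets are a rough guide. A change of at least 2-fold downward was seen for 14 members in KIN28 cells, against 12.6% of all probe sets, and for 13 in POG1 cells, against 14.8%. No member was 2-fold higher in either culture, whereas 13.1% of all probe sets were in KIN28 cells and 13.8% in POG1 cells. The balance of the cultures rested on the scaling: with unscaled intensities 6 members were 2-fold lower in KIN28 cells and 21 in POG1 cells. The share over all probe sets was not counted without scaling, so these 2 counts cannot be set against the shares above.

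With 1 array a group these folds have no replicate check. The cultures can serve only as repeats of each other, in a limma fit of time with culture as a block, which has 1 residual degree of freedom. By that fit 0 of 37 members passed an adjusted p of 0.05 in either direction, against 1.68% of all 8513 tested sets that were lower and 1.68% that were higher. At an unadjusted p under 0.05 the fit gave 18 members lower and 0 higher, and 13.2% of all sets lower and 12.9% higher. The folds below are therefore measured values on these arrays and not tested changes. The count of 0 also rests on the settings: members passing as lower numbered 17 when the spread was let follow intensity, where 7.92% of all sets did, and 17 with a higher floor, where 12.2% did.

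**Figure D1:**
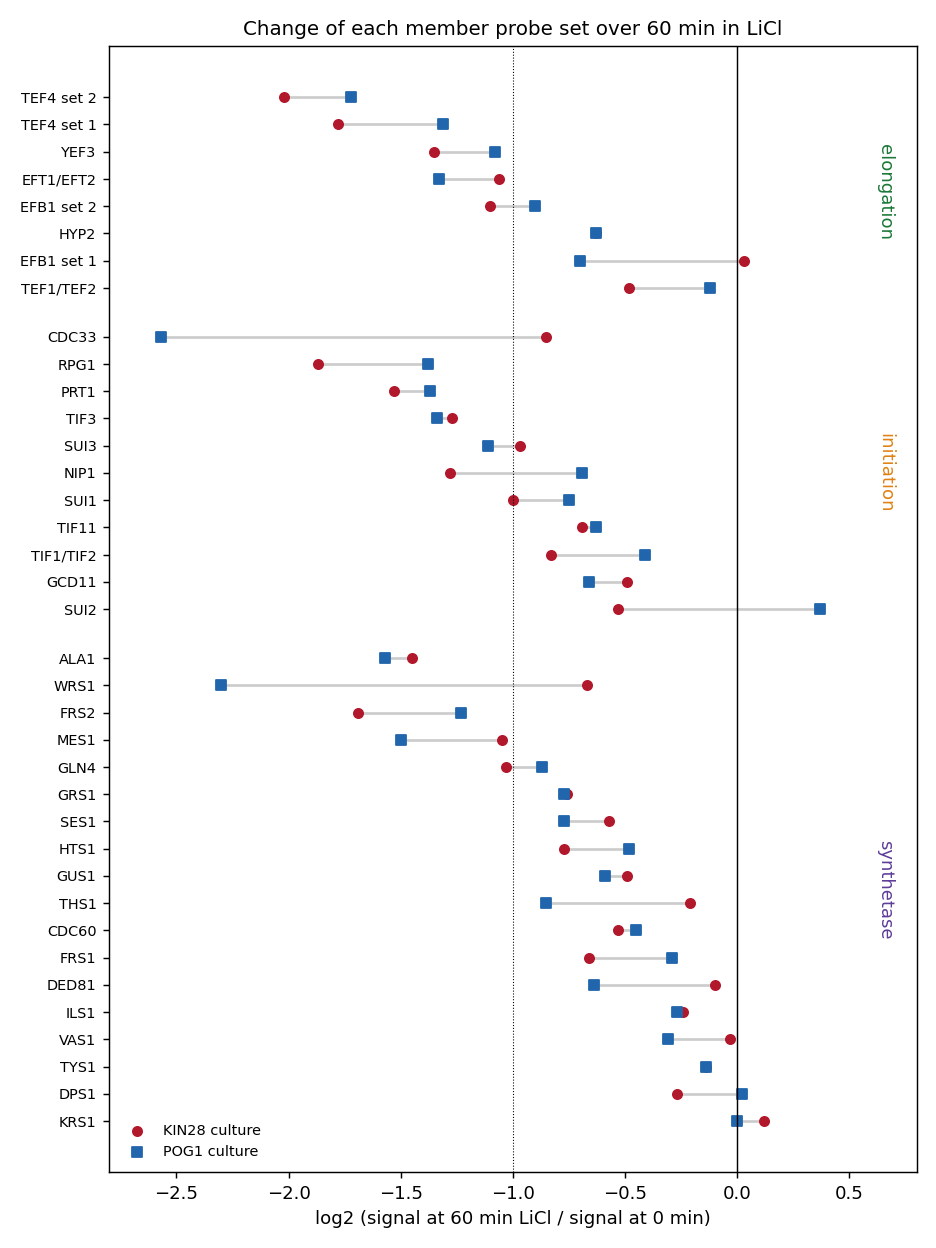
Log2 ratio of the 60 min to the 0 min signal for each of the 37 member probe sets, in KIN28 cells (circles) and POG1 cells (squares), 1 array per group and time, ordered by role. In each culture 35 of the 37 sets lie left of 0, and the points reach from -2.57 to 0.37.

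Of the 37 sets, 30 had both 60 min arrays below both 0 min arrays, against 24.8% of all probe sets. They were 7 of 8 elongation sets, 10 of 11 initiation sets and 13 of 18 synthetase sets. At least 2-fold lower in both cultures were 10, against 6.68% of all probe sets: TEF4 on both its sets, YEF3, EFT1/EFT2, TIF3, PRT1, RPG1, ALA1, MES1 and FRS2. At the other end 8 of the 37 sets stayed within 1.5-fold in both cultures, against 33.4% of all probe sets. They were 1 of 8 elongation sets, 1 of 11 initiation sets and 6 of 18 synthetase sets, and the synthetase part is near the share of all sets. Median log2 changes in KIN28 and POG1 cells were -1.08 and -0.99 for elongation, -0.97 and -0.75 for initiation, and -0.55 and -0.62 for the synthetases. The difference between the roles was not tested, and with quantile normalization the elongation medians were -0.80 and -0.66, against -1.02 and -0.71 for initiation.

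Among the elongation factors TEF4, 1 of 2 genes for the gamma subunit of the eEF1B exchange factor, was lowest after lithium. Its second set read 4.8 at 60 min and 19.5 at 0 min in KIN28 cells, and 5.68 at 60 min and 18.7 at 0 min in POG1 cells. Both 60 min arrays were far below both 0 min arrays, by 4.06-fold and 3.3-fold, and the cultures lay close together at each time. The shared log2 change was -1.87 ± 0.28 (SE; limma, adjusted p = 0.0516), the smallest adjusted p of the members. Over 13 settings of the processing this p ran from 0.0023 to 0.251 and was under 0.05 in 10. The first TEF4 set, which is dimmer, read 1.74 at 60 min and 5.97 at 0 min in KIN28 cells, and 2.32 at 60 min and 5.76 at 0 min in POG1 cells. It gave the same order of arrays, with a shared log2 change of -1.54 ± 0.29 (SE; limma, adjusted p = 0.0669).

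EFB1 encodes the alpha subunit of the same exchange factor, the part that swaps GDP for GTP on eEF1A, and its 2 sets disagreed. One set read 35.3 at 60 min and 75.8 at 0 min in KIN28 cells, and 32.3 at 60 min and 60.2 at 0 min in POG1 cells, or 2.14-fold and 1.86-fold lower. The other read 32.2 at 60 min and 31.5 at 0 min in KIN28 cells, and 27.2 at 60 min and 44 at 0 min in POG1 cells. That second reading was flat in KIN28 cells and 1.62-fold lower in POG1 cells, so no single value for EFB1 can be given in KIN28 cells.

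YEF3, which encodes eEF3, read 53.3 at 60 min and 136 at 0 min in KIN28 cells, and 56.1 at 60 min and 118 at 0 min in POG1 cells. It was 2.56-fold and 2.11-fold lower, with no overlap of the times (shared log2 change -1.21 ± 0.28, SE; limma, adjusted p = 0.0867). The eEF2 genes EFT1 and EFT2 gave 15.4 at 60 min and 32.3 at 0 min in KIN28 cells, and 12.8 at 60 min and 32.3 at 0 min in POG1 cells on their shared set. They had the same 0 min signal in both cultures and were 2.09-fold and 2.51-fold lower.

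TEF1 and TEF2, the genes of eEF1A, which carries charged tRNA to the ribosome, read 63.1 at 60 min and 88.2 at 0 min in KIN28 cells, and 83.4 at 60 min and 90.8 at 0 min in POG1 cells. This was a smaller difference than those of TEF4, YEF3 and EFT1/EFT2, 1.4-fold and 1.09-fold lower (shared log2 change -0.30 ± 0.28, SE; limma, adjusted p = 0.545). HYP2 encodes eIF5A, which despite its name helps ribosomes through difficult peptide bonds during elongation. It read 57.8 at 60 min and 89.8 at 0 min in KIN28 cells, and 59.2 at 60 min and 91.5 at 0 min in POG1 cells, or 1.55-fold and 1.54-fold lower.

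**Figure D2:**
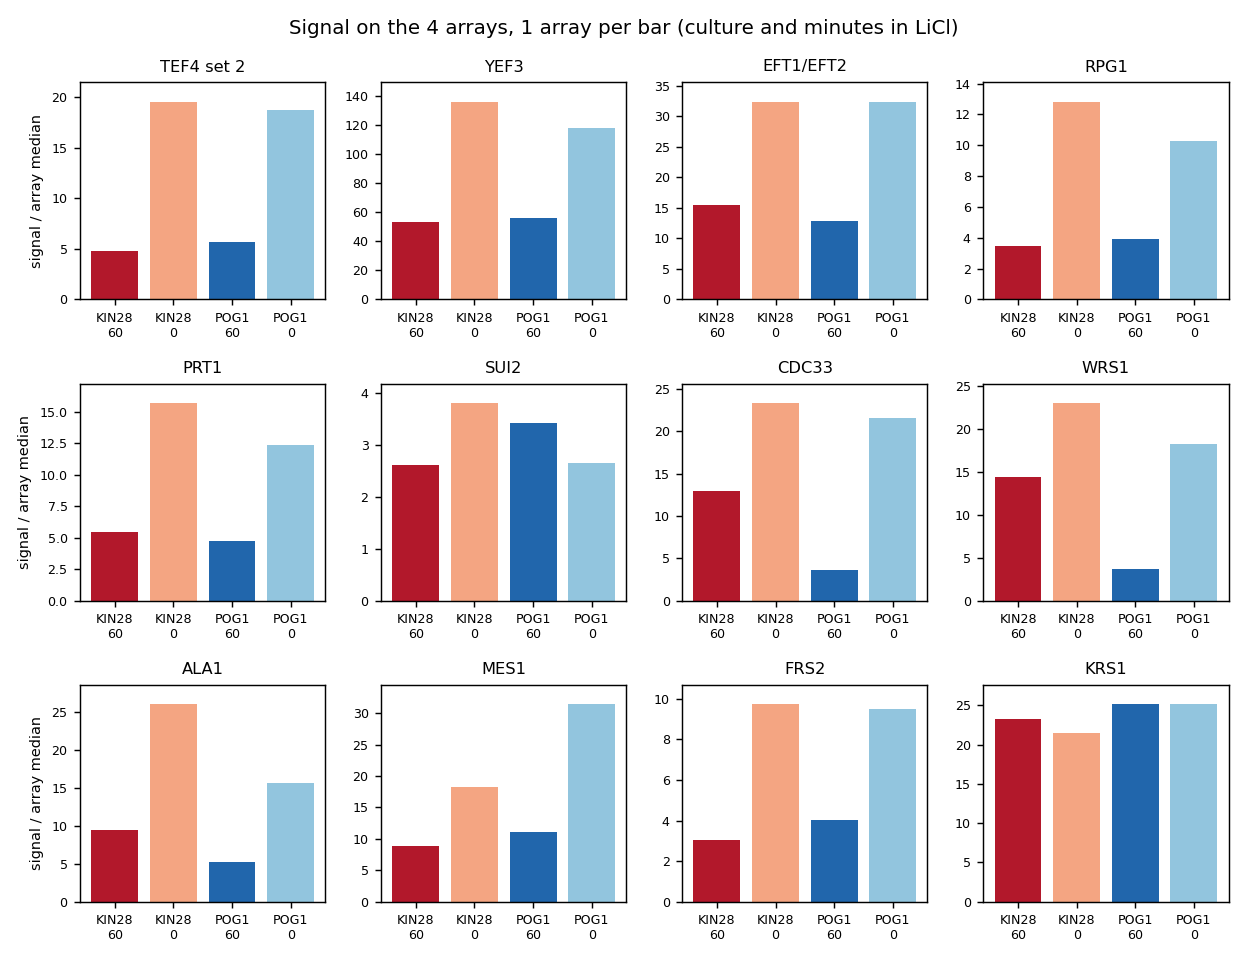
Signal over the array median on each of the 4 arrays, 1 bar per array, for selected members with the 60 min array left of the 0 min array in each culture. For all members drawn except SUI2 and KRS1 both 60 min bars are below both 0 min bars, and CDC33 and WRS1 have their lowest bar in POG1 cells at 60 min.

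The 3 eIF3 members among the initiation factors were all lower. RPG1, the large scaffold subunit eIF3a, read 3.49 at 60 min and 12.8 at 0 min in KIN28 cells, and 3.94 at 60 min and 10.3 at 0 min in POG1 cells. It was 3.66-fold and 2.6-fold lower (shared log2 change -1.63 ± 0.29, SE; limma, adjusted p = 0.062). PRT1, the eIF3b subunit that bridges the scaffold to the smaller subunits, read 5.44 at 60 min and 15.7 at 0 min in KIN28 cells, and 4.78 at 60 min and 12.4 at 0 min in POG1 cells. The times were 2.89-fold and 2.59-fold apart and did not overlap (shared log2 change -1.45 ± 0.27, SE; limma, adjusted p = 0.0657). NIP1, eIF3c, which contacts eIF1 and eIF5, was the dimmest member, with 0.951 at 60 min and 2.31 at 0 min in KIN28 cells, and 1.72 at 60 min and 2.78 at 0 min in POG1 cells. That is 2.43-fold and 1.62-fold lower, and at 60 min its signal was 1.81-fold lower in KIN28 than in POG1 cells.

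The eIF2 subunits differed in size and direction of the change. SUI3, the beta subunit, read 3.39 at 60 min and 6.65 at 0 min in KIN28 cells, and 3.85 at 60 min and 8.3 at 0 min in POG1 cells. It was 1.96-fold and 2.16-fold lower, just outside and just inside the 2-fold line (shared log2 change -1.04 ± 0.27, SE; limma, adjusted p = 0.108). GCD11, the gamma subunit that binds GTP and the initiator tRNA, read 10.3 at 60 min and 14.4 at 0 min in KIN28 cells, and 9.84 at 60 min and 15.6 at 0 min in POG1 cells, or 1.4-fold and 1.58-fold lower. SUI2, the alpha subunit that the kinase Gcn2 phosphorylates, went opposite ways. It read 2.62 at 60 min and 3.8 at 0 min in KIN28 cells, and 3.42 at 60 min and 2.64 at 0 min in POG1 cells. The change was 1.45-fold down in KIN28 cells and 1.29-fold up in POG1 cells, so the times overlapped (shared log2 change -0.08 ± 0.34, SE; limma, adjusted p = 0.905).

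Of the mRNA-binding eIF4 factors, TIF3, the eIF4B that aids the helicase eIF4A, read 6.43 at 60 min and 15.5 at 0 min in KIN28 cells, and 5.29 at 60 min and 13.4 at 0 min in POG1 cells. Its folds were 2.41 and 2.54, nearly equal in the cultures (shared log2 change -1.31 ± 0.27, SE; limma, adjusted p = 0.0765). TIF1 and TIF2, the eIF4A genes, read 39 at 60 min and 69.2 at 0 min in KIN28 cells, and 48.4 at 60 min and 64.4 at 0 min in POG1 cells, which is 1.78-fold and 1.33-fold lower. CDC33, the cap-binding eIF4E, read 12.9 at 60 min and 23.3 at 0 min in KIN28 cells, and 3.62 at 60 min and 21.6 at 0 min in POG1 cells. The POG1 60 min array was the low one, 5.95-fold under its 0 min value against 1.8-fold in KIN28 cells (shared log2 change -1.71 ± 0.49, SE; limma, adjusted p = 0.126).

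SUI1 encodes eIF1, which guards the choice of start codon. It read 10.7 at 60 min and 21.3 at 0 min in KIN28 cells, and 12 at 60 min and 20.2 at 0 min in POG1 cells, and so was on the 2-fold line in KIN28 cells and 1.68-fold lower in POG1 cells. TIF11, eIF1A, which works beside it, read 8 at 60 min and 12.9 at 0 min in KIN28 cells, and 8.8 at 60 min and 13.6 at 0 min in POG1 cells. It was 1.61-fold and 1.55-fold lower, with the times apart in both cultures.

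The synthetases ranged from 4.91-fold lower to 1.09-fold higher. ALA1, which charges alanine tRNA in the cytosol and mitochondria, read 9.5 at 60 min and 26 at 0 min in KIN28 cells, and 5.25 at 60 min and 15.6 at 0 min in POG1 cells. It was 2.74-fold and 2.97-fold lower (shared log2 change -1.51 ± 0.27, SE; limma, adjusted p = 0.0612), and higher in KIN28 than in POG1 cells at both times. MES1, the methionyl-tRNA synthetase that supplies both initiator and elongator methionine tRNA, read 8.84 at 60 min and 18.3 at 0 min in KIN28 cells, and 11.1 at 60 min and 31.4 at 0 min in POG1 cells. Its 60 min arrays were 2.07-fold and 2.83-fold under the 0 min arrays (shared log2 change -1.28 ± 0.29, SE; limma, adjusted p = 0.0861).

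FRS1 encodes the beta chain and FRS2 the alpha chain of phenylalanyl-tRNA synthetase, and their probe sets differed in the size of the change. FRS2 read 3.02 at 60 min and 9.72 at 0 min in KIN28 cells, and 4.05 at 60 min and 9.48 at 0 min in POG1 cells, or 3.22-fold and 2.34-fold lower (shared log2 change -1.46 ± 0.29, SE; limma, adjusted p = 0.0719). FRS1 read 43.8 at 60 min and 69 at 0 min in KIN28 cells, and 47.9 at 60 min and 58.7 at 0 min in POG1 cells, or 1.58-fold and 1.23-fold lower. Both genes had their 60 min arrays below their 0 min arrays, and the difference in size between them was not tested.

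WRS1, the tryptophanyl-tRNA synthetase, read 14.4 at 60 min and 23 at 0 min in KIN28 cells, and 3.72 at 60 min and 18.3 at 0 min in POG1 cells. As with CDC33, the POG1 60 min array stood low, 4.91-fold under 0 min, against 1.59-fold in KIN28 cells (shared log2 change -1.48 ± 0.47, SE; limma, adjusted p = 0.148). GLN4, for glutamine, read 2.5 at 60 min and 5.09 at 0 min in KIN28 cells, and 2.2 at 60 min and 4.01 at 0 min in POG1 cells. It was just past 2-fold in KIN28 cells, at 2.04, and 1.83-fold lower in POG1 cells.

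A middle group was between 1.36-fold and 1.81-fold lower in at least 1 culture and had both 60 min arrays below both 0 min arrays. GRS1, for glycine, was 1.7-fold lower in KIN28 cells and 1.71-fold in POG1 cells, and HTS1, for histidine, 1.71-fold and 1.39-fold. SES1, for serine, was 1.49-fold and 1.7-fold lower, GUS1, for glutamate, 1.41-fold and 1.51-fold, and CDC60, for leucine, 1.45-fold and 1.36-fold. THS1, for threonine, and DED81, for asparagine, were lower mainly in POG1 cells: THS1 by 1.16-fold and 1.81-fold, and DED81 by 1.07-fold and 1.56-fold.

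The synthetases nearest to no change were those for lysine, aspartate, tyrosine, valine and isoleucine, and their times overlapped. KRS1, for lysine, read 23.3 at 60 min and 21.4 at 0 min in KIN28 cells, and 25.1 at both times in POG1 cells (shared log2 change 0.06 ± 0.27, SE; limma, adjusted p = 0.911). DPS1, for aspartate, read 49 at 60 min and 59.2 at 0 min in KIN28 cells, and 41.2 at 60 min and 40.6 at 0 min in POG1 cells, small differences whose signs depend on the scaling. TYS1, for tyrosine, read 5.2 at 60 min and 5.74 at 0 min in KIN28 cells, and 8.82 at 60 min and 9.71 at 0 min in POG1 cells. Its signal differed more between the cultures than between the times, being 1.7-fold lower in KIN28 cells at 60 min and 1.69-fold lower at 0 min. Scaled on the hybridization controls, the difference at 60 min was gone (log2 ratio 0.02). VAS1, for valine, was 1.02-fold and 1.24-fold lower in KIN28 and POG1 cells, and ILS1, for isoleucine, 1.18-fold and 1.2-fold.

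Setting the cultures against each other, no member differed 2-fold at 0 min, where 11.8% of all probe sets did, and the member median log2 ratio of KIN28 over POG1 cells was 0.06. Without scaling 6 members did at 0 min, and scaled on the hybridization controls 10 did at 60 min. Under those scalings the share over all probe sets was not counted. They also moved the median culture log2 difference of all sets, to -0.12 and 0.45, so the 6 and 10 have no background beside them. With the reported scaling 2 members differed 2-fold at 60 min, against 13.9% of all probe sets, and both were higher in KIN28 cells. The 2 were CDC33, at 12.9 in KIN28 cells and 3.62 in POG1 cells, or 3.56-fold, and WRS1, at 14.4 in KIN28 cells and 3.72 in POG1 cells, or 3.88-fold. At 0 min the same genes had log2 ratios of 0.11 and 0.33.

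The same genes were the 2 members whose response differed 2-fold between cultures, against 19.6% of all probe sets, by 3.3-fold for CDC33 and 3.08-fold for WRS1. Each of these differences is fixed by 4 arrays with no repeat, and rests on the POG1 60 min array. Without CDC33 and WRS1, chosen after their values were seen, the correlation of the KIN28 and POG1 log2 changes over the sets was 0.78 (35 sets) and with them 0.6 (37 sets), beside 0.64 over all 8513 sets. These are descriptions across probe sets that share arrays.

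A difference between cultures of at least 1.5-fold at both times was seen for ALA1 and TYS1 only, with sizes that rest on the scaling. Smaller differences kept their direction in other members, such as GUS1, 1.45-fold lower in KIN28 cells at 0 min and 1.35-fold at 60 min. ALA1 was 1.81-fold higher in KIN28 than in POG1 cells at 60 min and 1.67-fold higher at 0 min, while TYS1 was lower at both. Scaled on the hybridization controls, the log2 ratios at 60 min were 1.64 for ALA1 and 0.02 for TYS1, and without scaling that of ALA1 at 0 min was 0.20. In the limma fit their mean log2 differences between cultures were 0.80 and -0.76, each with an adjusted p of 0.585, and 0.0235% of all probe sets passed 0.05. No member passed for culture, and 2 of 37 members, these genes, had an unadjusted p under 0.05, against 8.26% of all sets, so the members show no excess over the background. MES1 was 1.72-fold lower in KIN28 than in POG1 cells at 0 min and closer at 60 min, with a log2 ratio of -0.33.

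**Figure D3:**
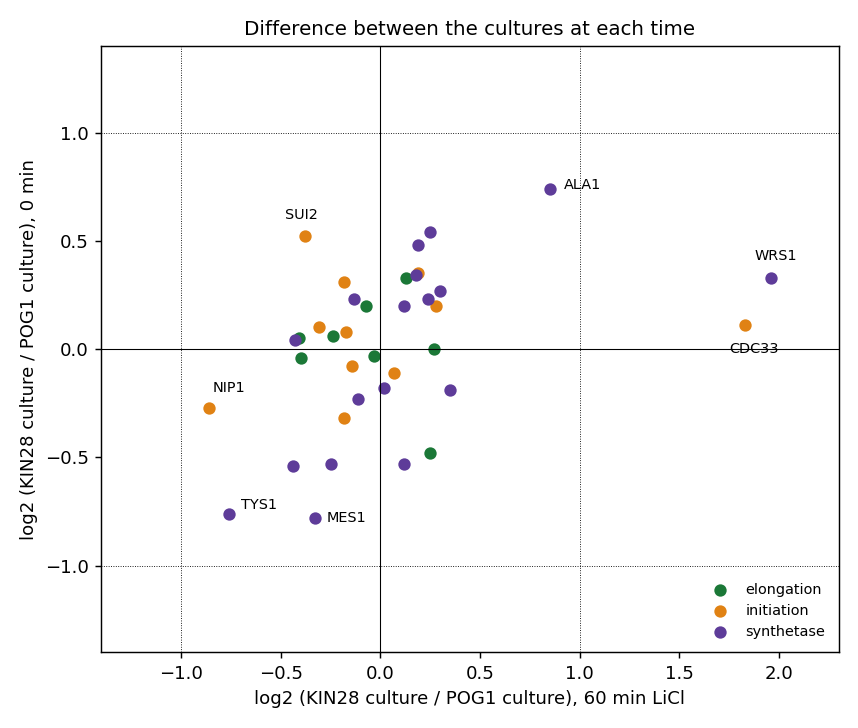
Log2 ratio of KIN28 to POG1 cells at 60 min (horizontal) against 0 min (vertical) for the 37 member probe sets, coloured by role, 1 array per group. CDC33 and WRS1 lie alone at the right, at 1.83 and 1.96 at 60 min and 0.11 and 0.33 at 0 min. ALA1 and TYS1 are among the sets that keep their sign at both times with this scaling. Scaled on the hybridization controls, TYS1 is at 0.02 at 60 min.

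The rest of the translation machinery was read from 50 further genes, each on a set of its own, of which 8 were 2-fold lower in KIN28 cells and 11 in POG1 cells, and 2 and 0 were 2-fold higher. The shares over all probe sets were the 12.6% and 14.8% lower and the 13.1% and 13.8% higher given above, and the lower count in KIN28 cells is near its share. By the limma fit 0 of 50 passed an adjusted p of 0.05, with 16 lower and 2 higher at an unadjusted p under 0.05, against 13.2% and 12.9% of all sets. Other initiation genes (18) had median log2 changes of -0.73 and -0.80, near those of the initiation members. TIF34, the eIF3i subunit, read 6.44 at 60 min and 17.3 at 0 min in KIN28 cells, and 5.3 at 60 min and 13.1 at 0 min in POG1 cells. With TIF34, TIF35 and HCR1 added, the 6 eIF3 genes had 4 that were 2-fold lower in KIN28 cells and 3 in POG1 cells, against 12.6% and 14.8% of all probe sets, with medians of -1.35 and -1.15.

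TIF4631, the major eIF4G scaffold that joins eIF4E to eIF4A, read 1.63 at 60 min and 4.47 at 0 min in KIN28 cells, and 1.53 at 60 min and 3.97 at 0 min in POG1 cells. It was 2.74-fold and 2.6-fold lower (limma, adjusted p = 0.0672), while its paralogue TIF4632 was 1.72-fold lower in KIN28 cells and 1.39-fold higher in POG1 cells. TIF4632 was dim, at 0.427 at 60 min and 0.735 at 0 min in KIN28 cells, and 1.13 at 60 min and 0.812 at 0 min in POG1 cells. The difference between the paralogues was not tested. CAF20, which binds eIF4E and competes with eIF4G, read 14.1 at 60 min and 24.5 at 0 min in KIN28 cells, and 5.35 at 60 min and 18.5 at 0 min in POG1 cells. Its low array was the one on which CDC33 was low, and at 60 min it was 2.64-fold higher in KIN28 than in POG1 cells. Of the 18 other initiation genes 1 was 2-fold higher and 1 was 2-fold lower in KIN28 cells at 60 min, against 13.9% of all probe sets in either direction. EAP1, another gene of this list, was 1.31-fold lower in KIN28 than in POG1 cells at 60 min. In POG1 cells it was 1.26-fold higher at 60 min than at 0 min.

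The other elongation and termination genes (10) had medians of -0.48 and -0.76. ANB1, the second eIF5A gene, best known for expression without oxygen, read 2.28 at 60 min and 8.59 at 0 min in KIN28 cells, and 4.59 at 60 min and 12 at 0 min in POG1 cells, or 3.77-fold and 2.61-fold lower, more than HYP2. HEF3, the second eEF3 gene, read 0.933 at 60 min and 0.227 at 0 min in KIN28 cells, and 1.64 at 60 min and 1.12 at 0 min in POG1 cells. Its KIN28 0 min signal was under the 95th percentile of the negative control sets on that array (0.456), so no fold is given there, and in POG1 cells it was 1.47-fold higher. It is 1 of the 2 genes counted as 2-fold higher in KIN28 cells, and the other, MSW1, was also under that percentile at 0 min. These copies are alike in sequence and their sets may catch each other's RNA, which was not tested.

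Control of translation by eIF2 runs through eIF2B, which recharges it, and through the kinase Gcn2, whose activity raises translation of the activator Gcn4. The 5 eIF2B genes had median log2 changes of -0.66 and -0.71. The largest fold in KIN28 cells was GCD7, at 2.54-fold lower against 1.26-fold in POG1 cells, and the largest in POG1 cells was GCD1, at 2.05-fold lower against 1.58-fold in KIN28 cells. GCN4 mRNA read 21.1 at 60 min and 31.8 at 0 min in KIN28 cells, and 21.4 at 60 min and 36.9 at 0 min in POG1 cells. It was 1.51-fold and 1.72-fold lower (limma, adjusted p = 0.208), while GCN2 stayed between 0.819 and 1.04 on the 4 arrays. GCN4 is controlled mainly by translation, which these arrays do not measure.

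Synthetases of the mitochondria (14) showed no common direction, with median log2 changes of -0.08 and -0.34, against -0.55 and -0.62 for the cytosolic members. Their signals were low, at most 2.19 on any array, against at least 2.2 for the cytosolic members. In POG1 cells at 60 min MSW1 (0.0512), DIA4 (0.331) and ISM1 (0.337) were under the 95th percentile of the negative controls there (0.532). The part of low signal in this contrast was not tested. AIM10, for proline, was 2.6-fold lower in KIN28 cells and 1.56-fold in POG1 cells, whereas MSR1, for arginine, was 1.87-fold and 1.51-fold higher. The remaining cytosolic synthetase genes, with the cofactor gene ARC1 (4 in all), had medians of -0.36 and -0.21. The proline enzyme gene YHR020W was 1.65-fold and 2.2-fold lower, while ARC1, which holds the methionine and glutamate enzymes together, read 15.4 at 60 min and 13.5 at 0 min in KIN28 cells, and 21.3 at 60 min and 22.5 at 0 min in POG1 cells.

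**Figure D4:**
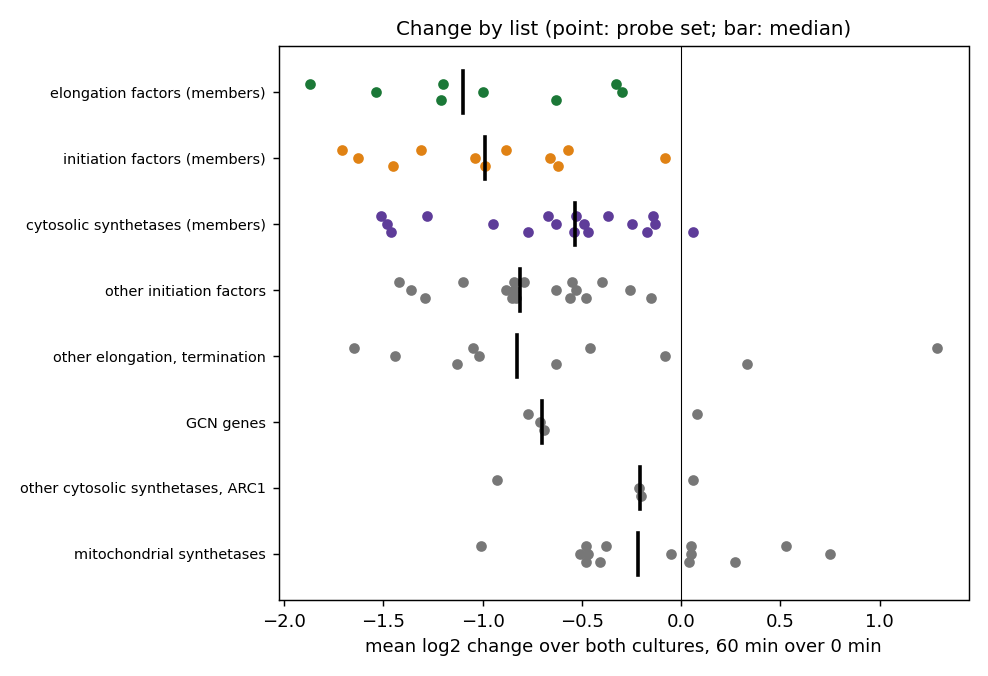
Mean log2 change over both cultures, 60 min over 0 min, for each probe set of the 3 member roles and of the 5 further lists of translation genes, with a bar at each list's median. The elongation and initiation members have the lowest medians, -1.10 and -0.99, with this scaling. The mitochondrial synthetases, whose signals were low, spread on both sides of 0.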

How the data were processed

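Each array came as a text table with a deposited Raw intensity and, per the file headers, a deposited normalized ratio; the ratio differed from Raw over the array median by at most 0.0193. The software behind the intensity is not given in the sources used here. Raw was divided by the array median over all probe sets, values under the array's 20th percentile were set to it, and log2 was taken. Probe sets above this floor on at least 1 compared array were counted. With 1 array per group, 2-fold was the line and carries no test. The shared change was fitted with limma 3.58.1 (R 4.3.3; lmFit and eBayes on time and culture), Benjamini-Hochberg adjusted over 8513 probe sets, with 3.39 prior degrees of freedom.

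Members and lists were chosen with earlier results of these data known. Genes were named from the tables' own name columns and GEO's platform annotation. All members may be named. Of the other lists, up to 3 a direction with the largest mean change may be, plus GCN4, GCN2 and the eIF2B genes. Named outside this rule were TIF35 and HCR1 as eIF3 subunits, TIF4632 as a paralogue, EAP1 beside CAF20, and MSW1 and DIA4 for their low signals. Promoter and protein sequences were not used here. Other scalings, floors, fold lines and fits were tried. The number of arrays limits the precision.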

Additional observations from a re-analysis of the deposited data

Results flagged for a closer look

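For 4 member probe sets the change over 60 min had opposite signs in the cultures, and the difference was not tested. One EFB1 set had a log2 change of 0.03 in KIN28 cells and -0.7 in POG1 cells. SUI2 had -0.53 in KIN28 cells and 0.37 in POG1 cells. DPS1 had -0.27 in KIN28 cells and 0.02 in POG1 cells. KRS1 had 0.12 in KIN28 cells and -0.0015 in POG1 cells, which is level in POG1 cells at this precision. The signs of SUI2 held under each scaling tried. Those of the EFB1 set were -0.06 and -0.65 with the 75th percentile, and those of DPS1 were 0.10 in KIN28 and -0.31 in POG1 cells without scaling.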

How the results depend on the processing

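Array scaling set the balance between the cultures. Without scaling, members at least 2-fold lower numbered 6 in KIN28 and 21 in POG1 cells (medians -0.39 and -1.09), 6 were lower in both, 5 stayed within 1.5-fold in both, 6 differed between cultures at 0 min, 6 responses differed, and 2 members passed limma as lower. Medians in KIN28 and POG1 cells were then -0.71 and -1.32 for elongation, -0.6 and -1.09 for initiation, and -0.18 and -0.95 for the synthetases. Scaled on the bacterial hybridization controls, the counts were 6 and 21 (medians -0.31 and -1.08), 6 were lower in both, 5 stayed within 1.5-fold, 10 differed between cultures at 60 min, 8 responses differed, and 1 passed, with medians of -0.63 and -1.32, -0.52 and -1.08, and -0.1 and -0.95 for the roles in that order. Quantile normalization gave elongation a median of -0.66 in POG1 cells. Leaving out the scaling and scaling on the hybridization controls moved the median culture difference of all sets to -0.12 and 0.45. For the counts by fold in this paragraph the shares over all sets were not counted, so they have no background beside them. A 1.5-fold line gave 23 and 26 lower members, 20 in both, 3 and 5 differing at 0 and 60 min, and 6 responses; a 3-fold line gave 4 and 3, with 1 in both. Members passing limma as lower, 0 as reported, numbered 2 with the 75th percentile, 17 with a floor at the 40th percentile, 5 without suffixed probe sets, 17 with an intensity trend, 2 with no block and 10 with a pseudocount. They were 12 with a floor from negative controls and 1 with the median over sets above the floor on all arrays, both chosen after seeing the data. The number of all sets passing, in either direction, moved as well. It was 286 of 8513 as reported, 572 without scaling, 476 with the hybridization controls and 546 with the 75th percentile. With the higher floor it was 1505 of 6532, without suffixed sets 480 of 6947, and with the negative control floor 1088 of 7663. With a trend it was 1304, with no block 412, with a pseudocount 976 and with the last median 393. The cause of these shifts was not tested. With no floor, 0 of all sets passed in limma, the smallest adjusted p being 0.251. No value past 2-fold changed sign. Of the smaller changes in KIN28 cells 6 of 23 did without scaling, and 1 of 24 in POG1 cells. Of the smaller differences between cultures 19 of 37 did at 0 min without scaling, and 18 of 35 at 60 min with the hybridization controls. No replicate could be left out, because each group holds 1 array. The reported fit pairs the times within each culture, and with 1 array per group no other pairing within a culture exists.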
